A study of Ovis aries with 30 samples.

Results

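The genes of fatty acid oxidation and ketone metabolism were examined in brown adipose tissue (BAT) and thyroid tissue (TH) of newborn lambs. The members were 36 genes fixed by name: enzymes that activate fatty acids, the carnitine shuttle, the enzymes of mitochondrial and peroxisomal β-oxidation, the electron transfer flavoproteins, acyl-CoA thioesterases and enzymes of ketone bodies. Of these, 33 had a row by that name among the 28524 rows of the count table. The other 3, ACADM, ACAD10 and ACOT2, are not analysed here.

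Fatty acids are activated to acyl-CoA by the long-chain acyl-CoA synthetases, carried into mitochondria as carnitine esters, and shortened in repeated rounds of dehydrogenation, hydration, a second dehydrogenation and thiolysis. In BAT, the acetyl-CoA and reduced cofactors from this pathway feed a respiratory chain that uncoupling protein 1 (UCP1) turns to heat production, which lets newborn lambs keep warm without shivering. The carnitine palmitoyltransferase 1 enzymes, CPT1A and CPT1B, catalyse the step at which entry into mitochondria is regulated, and peroxisomes shorten very long and branched chains. The thyroid gland makes hormones that act on the thermogenic programme of BAT.

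RNA was sequenced from both tissues of 15 Romney lambs, giving 30 libraries. Newborn lambs from pasture, all born as twins and each the heavier of its pair, were assigned to 6 cold lambs held for 2 days at 4 °C, 6 ambient temperature (AT) lambs held for 2 days at 20–22 °C, and 3 control lambs sampled about 24 h after lambing. Each lamb came from a different dam, both sexes were used, the treated lambs were penned with their dams and siblings, and the labels name no allele or agent. Treated lambs were older than controls when sampled, so temperature, housing and age cannot be told apart in a comparison with controls, whereas cold against AT compares lambs of the same age. The study left 1 control out in each tissue for outlying counts, called Control 2 here, and 28 libraries entered the comparisons. The comparisons against controls therefore rest on Control 1 and Control 3.

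Libraries held between 31556500 and 37025998 assigned counts in BAT and between 25062784 and 30124871 in TH. A pair of unnamed genes took 43.8% to 76.5% of these in BAT and 5.18% to 27.8% in TH, which left between 8093700 and 18276329 counts for all other genes of a BAT library and between 18098434 and 26929601 of a TH library. Members took between 38056 and 92870 counts of a BAT library and between 46277 and 76093 of a TH library. The tissue labels held against their defining markers: thyroglobulin (TG) had between 901630 and 4039959 counts in the TH libraries used and between 10 and 1160 in BAT, and adiponectin (ADIPOQ) had between 11517 and 79344 counts in BAT and between 132 and 5388 in TH. Some libraries stood apart. AT 6 had the lowest BAT level among the 12 treated lambs for 28 of the 33 members, with a median log2 deviation of -1.11 from the median of these lambs, and its summed brown adipocyte markers (10 of 12 with a row) were 2681 normalised read counts. All marker sums are on a scale shared by both tissues. AT 1 had the highest BAT level among these lambs for 16 of the 33 members, with a median log2 deviation of 0.54. Its summed adrenal and kidney markers (13 of 13 with a row) were 1559 normalised read counts, against 110 to 395 in the other BAT libraries used. The part of these markers in its levels was not tested. In TH, the summed skeletal muscle markers (17 of 18 with a row) were 2749650 normalised read counts in AT 3 and 241509 in Control 1, against 288 to 3585 in the other libraries used. BAT of the left-out Control 2 exceeded both other controls for 26 of 33 members (median log2 difference 1.19) and had a brown adipocyte sum of 145210. Its adrenal and kidney sum was 4300. In TH, Control 2 lay below both other controls for 22 of 33 members and above both for 6 (median log2 difference -0.77).

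Levels were first compared between members per kilobase of exon, as size-factor-scaled counts on a scale shared by both tissues. In BAT the highest median over the 14 libraries used belonged to ACADVL (5494 per kb), the dehydrogenase that starts oxidation of very long and long chains. It was followed by ETFB (4733 per kb), a subunit of the flavoprotein that collects electrons from the acyl-CoA dehydrogenases, ECI2 (4134 per kb), an isomerase for unsaturated chains, and ACSL1 (3008 per kb), the main acyl-CoA synthetase of fat cells. The ranges of these 4 members overlapped: ACADVL ran from 1719 to 8316 per kb and ACSL1 from 1653 to 6939 per kb. The thioesterase ACOT11, which hydrolyses acyl-CoA, was lowest with a median of 22.9 per kb. In TH the order began with ETFB (2215 per kb), ECI2 (1469 per kb), the mitochondrial thiolase ACAA2 (1347 per kb) and ACADVL (1227 per kb), and ended with the ketone enzyme BDH1 (2.32 per kb).

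**Figure D1:**
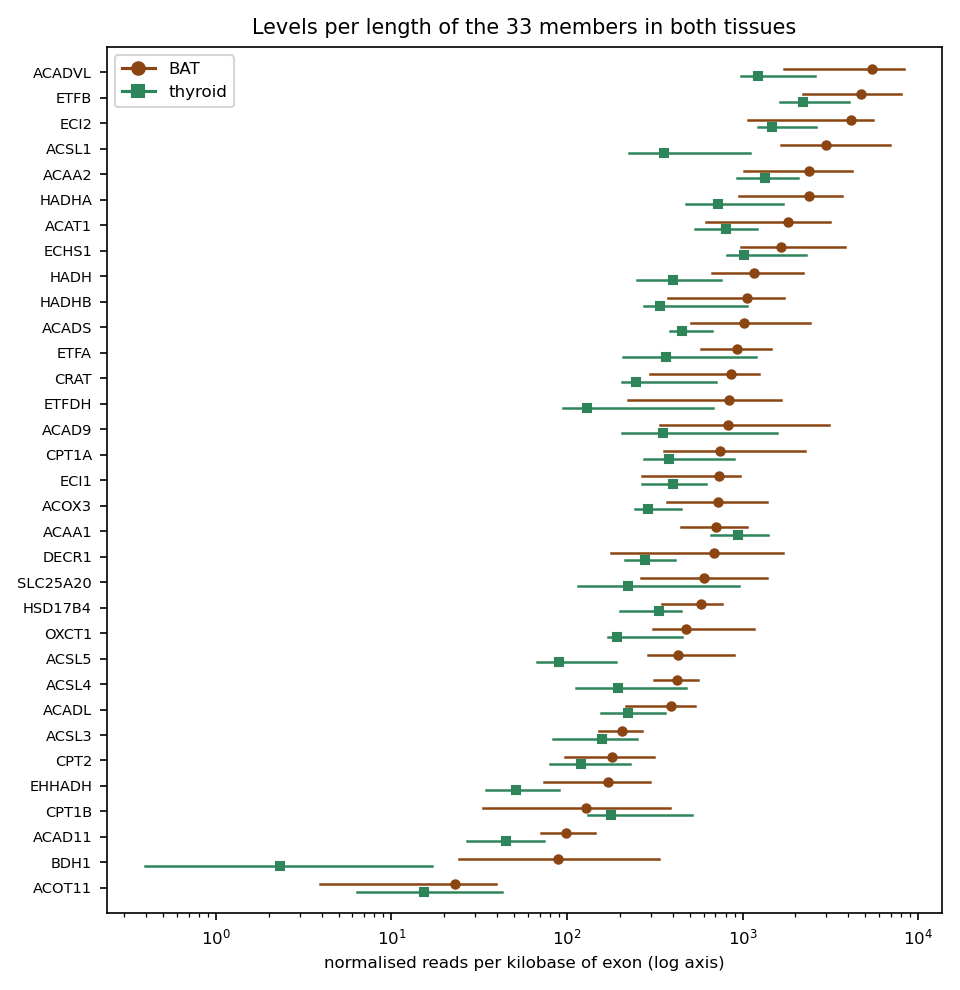
Level of each of the 33 members per kilobase of exon (log axis, size-factor-scaled counts on a scale of both tissues) in BAT (circles) and thyroid tissue (squares); symbols are medians and bars the lowest to highest library among those used. ACADVL had the highest BAT median (5494 per kb) and ACOT11 the lowest (22.9 per kb), and the tissues' ranges did not overlap for ACSL1, ACSL5 and BDH1.

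In BAT, the carnitine shuttle held the only member that was called, CPT1A, the liver-type carnitine palmitoyltransferase (Oar_rambouillet_v1.0 chromosome 21, from 47903982 to 47963597, minus strand). A gene was called when the absolute log2 fold change (log2FC) was at least 1 and the Benjamini-Hochberg adjusted p-value of edgeR's quasi-likelihood test was under 0.05. Normalised read counts, which are counts divided by a size factor from the reference genes ACTB, RPL19 and HUWE1, are given for each tissue on its own scale. Marker sums instead use the scale shared by both tissues. CPT1A had 7405 normalised read counts in Control 1, 4146 in Control 3 and 1717 in the left-out Control 2. The AT lambs ran from 1119 over a median of 1840 to 2733, below both controls used. The cold lambs ran from 2275 over a median of 2689 to 4369, and the highest of them lay above Control 3. Against controls, CPT1A fell by 1.59 on the log2 scale in AT (SE 0.30, edgeR adjusted p = 0.00731), a level 3.00-fold lower. In cold the log2FC was -0.95 ± 0.31 (SE, edgeR adjusted p = 0.116), and cold minus AT was 0.63 ± 0.23 (edgeR adjusted p = 0.306), so neither passed. The call in AT depended on the controls: without Control 1 the log2FC was -1.11 (edgeR adjusted p = 0.15), with the left-out control in place of Control 1 -0.53 (edgeR adjusted p = 0.318), and with it in place of Control 3 -1.15 (edgeR adjusted p = 0.0754). Summed brown adipocyte markers, with UCP1 among them, ran from 39846 to 49946 normalised read counts in the controls used. They ran from 10360 to 28996 in cold and from 2681 to 29583 in AT, with 1 of the 10 measured markers at 0 in every library of each group. Of the 7 tested, 0 were called in cold or AT against control, beside 1.21% and 6.07% of all genes, with medians of -0.83 and -0.87. Summed markers of adipocytes of any kind ran from 160335 to 161384 in the controls used, from 86421 to 158860 in cold and from 57278 to 232037 in AT. The part of these markers in the result was not tested. In bulk tissue, fewer cells of a type and less RNA per cell cannot be told apart.

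CPT1A was 1 member of 33 called for AT against control, where 6.07% of the 14905 genes tested were called, so the share of members called was below that of all genes. Beside CPT1A, ACSL1, EHHADH and ACAA1 had an unadjusted p under 0.05, as did 26% of all genes. DESeq2's Wald test called 1 member and 8.73% of all genes. For cold against control, edgeR called 0 of 33 members and 1.21% of all genes, and DESeq2's Wald test called 0 members and 4.21% of all genes. An unadjusted p under 0.05 was reached by 2 members, CPT1A and EHHADH, and by 18.1% of all genes. For cold against AT, edgeR called 0 members and 0.275% of all genes, and DESeq2's Wald test called 0 members and 0.973% of all genes. An unadjusted p under 0.05 was found for 4 members (CPT1A, ACSL1, CPT1B and ACADS) and 12.3% of all genes. The median log2FC of the members was -0.14 for cold against control (-0.10 over all tested genes), 0.07 for AT against control (-0.03 over all) and -0.21 for cold against AT (-0.05 over all). With all 3 controls it was -0.52 for cold against control (0.07 over all) and -0.36 for AT against control (0.11 over all). In cold against AT, 26 of the 33 members and 57.1% of all tested genes had a negative log2FC, but lambs of a group differed widely and no single member passed.

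**Figure D2:**
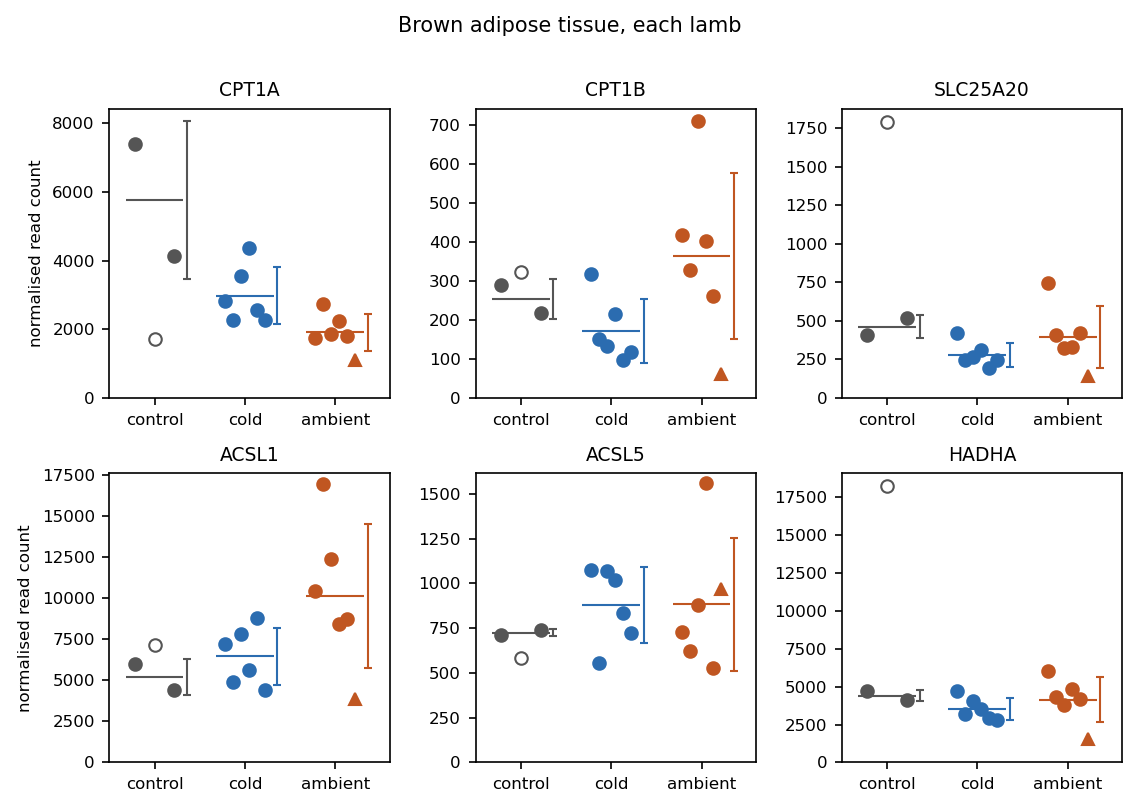
Normalised read count in BAT of CPT1A, CPT1B, SLC25A20, ACSL1, ACSL5 and HADHA by group (cold, AT, control); filled points are libraries used, the open circle is the control left out, the triangle is AT 6, and line and bar are mean and SD of the libraries used. All AT lambs lie at or below 2733 for CPT1A, below the controls used at 7405 and 4146, while AT 6 is the lowest library in every panel but that of ACSL5.

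The other members of the carnitine shuttle varied more within groups than between them. CPT1B, the muscle-type isoform, had 290.1 and 218 normalised read counts in Control 1 and Control 3, from 98.8 over 142 to 318 in cold, and from 61.3 over 366 to 710.2 in AT. The AT lambs held both the lowest and the highest of these values, and cold minus AT was -1.09 ± 0.42 (SE, edgeR adjusted p = 0.331). SLC25A20, the translocase that exchanges acylcarnitine for carnitine across the inner membrane, had 409 and 516 in these controls, from 194 over 257 to 420.5 in cold, and from 143 over 368 to 749 in AT. Its cold range reached only just into the controls, but the log2FC of -0.72 ± 0.40 (edgeR adjusted p = 0.355) did not pass. CRAT, which moves acetyl groups between carnitine and CoA and was the shuttle member with the highest level per kb, had 2655 and 2386 in these controls, from 1601 over 2300 to 2765 in cold, and from 822 over 2883 to 3451 in AT. CPT2, which returns acyl groups to CoA inside mitochondria, had a log2FC of 0.02 in cold and -0.05 in AT.

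Among the synthetases, ACSL1 had 6005 and 4431 normalised read counts in Control 1 and Control 3, from 4440 over 6399 to 8811 in cold, and from 3837 over 9580 to 16974 in AT. The AT lambs spread over the whole range of the tissue. The log2FC against controls was 0.31 ± 0.40 (SE) in cold (edgeR adjusted p = 0.731) and 0.96 ± 0.42 in AT (edgeR adjusted p = 0.162). ACSL5, a synthetase of mitochondria and endoplasmic reticulum, had 711 and 738 in the controls, from 553 over 925 to 1077 in cold, and from 529.7 over 803 to 1563 in AT. Both treated groups lay on either side of the controls, and the log2FC was 0.28 ± 0.34 in each (edgeR adjusted p = 0.719 in cold and 0.639 in AT). ACSL4, which prefers arachidonate, had 1548 and 1410 in the controls, from 1122 over 1386 to 1749 in cold and from 1022 over 1167 to 1465 in AT. ACSL3, a synthetase of lipid droplets and endoplasmic reticulum, had a log2FC of -0.11 in cold and -0.30 in AT.

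The acyl-CoA dehydrogenases catalyse the first oxidation of each round and differ in chain length. ACADVL had 10277 and 7549 normalised read counts in Control 1 and Control 3, from 5075 over 6788 to 9846 in cold, and from 2287 over 8843 to 11063 in AT. The groups overlapped throughout, with a log2FC of -0.37 ± 0.39 (SE, edgeR adjusted p = 0.662) in cold and -0.16 ± 0.40 (edgeR adjusted p = 0.838) in AT. For ACADS, the short-chain enzyme, cold minus AT was -0.58 ± 0.25 (edgeR adjusted p = 0.378). ACADL, the long-chain enzyme, ACAD11, which takes long chains, and ACAD9, known also as an assembly factor of respiratory complex I, had absolute log2FC of at most 0.47 against controls.

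In the steps that follow, ACAA2 had 2864 and 3129 normalised read counts in the controls, from 2172 over 3069 to 5611 in cold, and from 1251 over 3064 to 3798 in AT. Its medians in the 2 treated groups lay within the controls. HADHA and HADHB, the α and β subunits of the mitochondrial trifunctional protein, lie on opposite strands of chromosome 3, with 280 bases between the end of HADHA and the start of HADHB. HADHA had a log2FC of -0.32 in cold and -0.10 in AT, and HADHB 0.03 and 0.16. The hydratase ECHS1 and the short-chain hydroxyacyl-CoA dehydrogenase HADH had log2FC of 0.11 and 0.29 in cold and of 0.55 and 0.67 in AT, and neither passed.

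Unsaturated chains need auxiliary enzymes. ECI2 had 4530 and 3055 normalised read counts in Control 1 and Control 3, from 1913 over 3124 to 4897 in cold, and from 970.3 over 4258 to 5026 in AT, so the ranges overlapped. ECI1, the other mitochondrial isomerase, had a log2FC of -0.20 in cold and -0.21 in AT. DECR1, the reductase for chains with conjugated double bonds, had a log2FC of 0.995 ± 0.54 (SE) in AT (edgeR adjusted p = 0.259). ETFB had 5199 and 4102 in the controls, from 3734 over 5530 to 6575 in cold, and from 2519 over 6841 to 9502 in AT, and neither difference from controls passed (log2FC 0.16 and 0.51). ETFA, the other flavoprotein subunit, and ETFDH, which passes the electrons to ubiquinone, had log2FC between -0.41 and -0.14 in these comparisons.

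In the peroxisomal enzymes, EHHADH, a bifunctional hydratase and dehydrogenase, had 195 and 293 normalised read counts in Control 1 and Control 3, but 1233 in the left-out Control 2. The cold lambs ran from 345 over 478 to 612 and did not overlap the controls used, while the AT lambs ran from 220.2 over 496 to 759. The log2FC was 0.92 ± 0.39 (SE, edgeR adjusted p = 0.223) in cold and 1.04 ± 0.40 (edgeR adjusted p = 0.108) in AT. The peroxisomal thiolase ACAA1 had 575 and 452 in the controls, from 636 over 680.3 to 774 in cold, and from 507 over 796 to 1031 in AT. The cold lambs lay above both controls used, but the log2FC of 0.44 ± 0.22 (edgeR adjusted p = 0.308) did not pass, nor did 0.62 ± 0.22 (edgeR adjusted p = 0.0923) in AT. Not overlapping was met by 3 members in cold against control, EHHADH, ACAA1 and ACAT1, which is 9.09% of members against 24.6% of all tested genes. ACOX3, an oxidase for branched chains, had 2123 and 1814 in the controls, from 1196 over 1653 to 2184 in cold, and from 939.9 over 2261 to 3503 in AT. HSD17B4, the other bifunctional enzyme, had a log2FC of -0.27 in cold and -0.13 in AT.

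For ketone bodies, ACAT1, the mitochondrial acetoacetyl-CoA thiolase, had 2129 and 2100 normalised read counts in the controls, from 1609 over 1803 to 2052 in cold, and from 635 over 2757 to 3254 in AT. The cold lambs lay just below both controls, with a log2FC of -0.22 ± 0.39 (SE, edgeR adjusted p = 0.807). OXCT1, the transferase that starts the use of acetoacetate, and BDH1, which interconverts β-hydroxybutyrate and acetoacetate, had log2FC of -0.09 and -0.63 in cold and of 0.29 and 0.01 in AT. ACOT11 had 80.2 and 49.9 in the controls, from 34.1 over 43.5 to 68.8 in cold, and from 7.59 over 42.2 to 56.5 in AT, with the lowest value in AT 6.

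AT 6 decided several of these values. Without this library, AT against control had 4 called members in place of 1: CPT1A (log2FC -1.49 ± 0.27 (SE), edgeR adjusted p = 0.00436), EHHADH (1.18 ± 0.32, edgeR adjusted p = 0.0254), DECR1 (1.199 ± 0.33, edgeR adjusted p = 0.0254) and ACSL1 (1.11 ± 0.32, edgeR adjusted p = 0.0341). The share of all genes called was then 8.07%. ACAA1 passed the adjusted p without reaching the fold (log2FC 0.70, edgeR adjusted p = 0.0203). In cold against AT, CPT1B was then called (log2FC -1.33 ± 0.30, edgeR adjusted p = 0.0451) beside 0.674% of all genes, and ACADS passed the adjusted p (log2FC -0.77, edgeR adjusted p = 0.0355). The median log2FC of the members for AT against control ran from -0.02 (without AT 1) to 0.23 (without AT 6) over the fits that left out 1 library each.

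In TH, 30 of the 32 members tested had a negative log2FC in cold against control and 31 of 32 in AT against control, where 70.2% and 68.5% of all tested genes did. The median log2FC of the members was -0.60 in cold and -0.49 in AT, against -0.28 over all tested genes in each comparison. With all 3 controls the members' medians were -0.41 and -0.32, against -0.23 and -0.21 over all tested genes. Both comparisons share the same controls. In cold, edgeR called 2 members, both lower, where 8.04% of 16122 genes were called, and in AT also 2, both lower, where 7.8% were called. At the adjusted p alone, 9 members were lower in cold, where 16.9% of all genes were, and 9 in AT, where 18.7% were. The groups did not overlap for 18 of 32 members in cold against control, 56.2% of members against 34.6% of all tested genes, and for 8 of 32 in AT against control, 25% against 27.3%. The lower level of genes in general depends on the scaling: with TMM scaling over all genes the medians of all genes were 0.02 and 0.05, those of the members were -0.30 and -0.15, and 1 member, SLC25A20, was called in each comparison. The sum of 12 thyroid follicular markers ran from 1809370 to 3755670 normalised read counts in the controls used, from 1133770 to 1673440 in cold and from 862531 to 1523100 in AT, and 1 of the 12 was at 0 in every cold and control library. Of the 11 tested, 2 were called lower in cold and 3 in AT, with medians of -0.26 and -0.41. The sum of 10 endothelial markers ran from 17679 to 26897 in the controls, from 11185 to 14700 in cold and from 9628 to 18616 in AT, with 3 and 2 of 10 called lower and a median of -0.59 in each comparison. Their part in the members' levels was not tested.

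**Figure D3:**
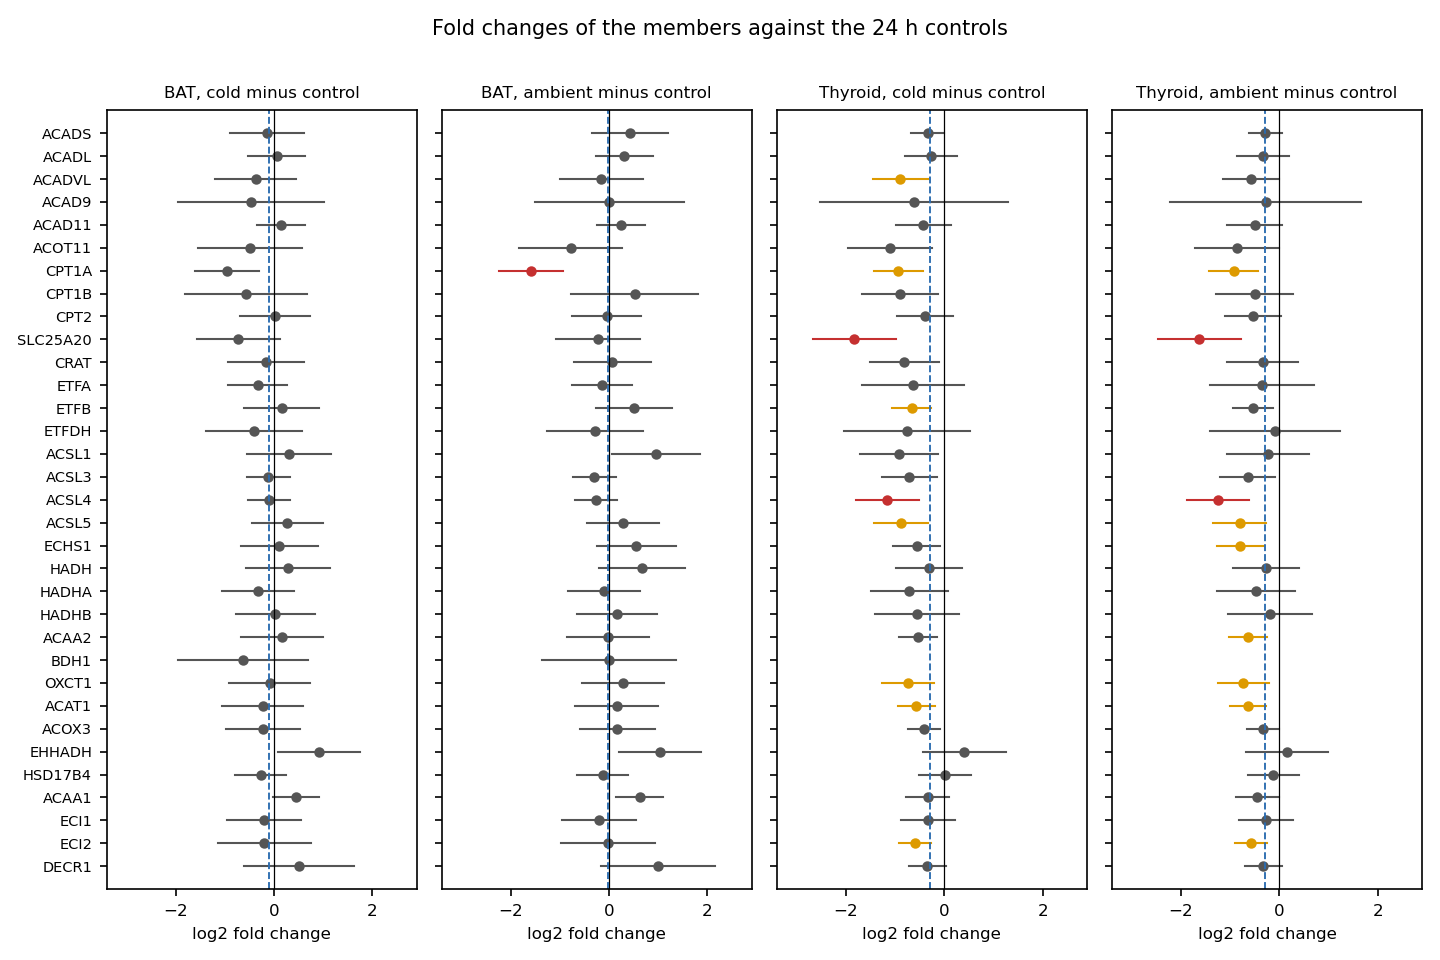
log2FC against control of every member in BAT and thyroid tissue (cold and AT), with 95% intervals; red points were called, yellow points passed the adjusted p alone, grey points passed neither, and the dashed blue line is the median of all tested genes. In thyroid tissue nearly all points lie below 0 (30 of 32 in cold and 31 of 32 in AT), with SLC25A20 the lowest in both panels; BDH1 was not tested there.

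The called members of TH were SLC25A20 and ACSL4, in each comparison. SLC25A20 (chromosome 19, from 53023690 to 53060717, plus strand) had 743 normalised read counts in Control 1, 1359 in Control 3 and 367 in the left-out Control 2. The cold lambs ran from 197 over 311 to 357, and the AT lambs from 167 over 290.4 to 714, the last value being that of AT 3. All treated lambs lay below both controls used, and of them AT 3 alone lay above the left-out control. SLC25A20 fell by 1.83 on the log2 scale in cold (SE 0.39, edgeR adjusted p = 0.0081) and by 1.62 in AT (SE 0.40, edgeR adjusted p = 0.0124). ACSL4 (chromosome X, from 134005859 to 134080888, plus strand) had 3988 in Control 1, 3803 in Control 3 and 4752 in Control 2. The cold lambs ran from 1386 over 1745 to 2043 and the AT lambs from 943 over 1449 to 3140, below all 3 controls. ACSL4 fell by 1.16 in cold (SE 0.30, edgeR adjusted p = 0.0174) and by 1.25 in AT (SE 0.30, edgeR adjusted p = 0.0111). With TMM scaling ACSL4 did not pass, at -0.87 in cold (edgeR adjusted p = 0.0798) and at -0.95 in AT (edgeR adjusted p = 0.0562). With the left-out control in place of Control 3, SLC25A20 lost its call, at -0.91 in cold (edgeR adjusted p = 0.16) and -0.70 in AT (edgeR adjusted p = 0.3), whereas ACSL4 kept it, at -1.33 (edgeR adjusted p = 0.0122) and -1.42 (edgeR adjusted p = 0.00937). With the left-out control in place of Control 1, SLC25A20 was called in cold but not in AT, and ACSL4 was called in both. Without Control 3, edgeR called 0 members in either comparison, beside 0.562% of all genes in cold and 0.587% in AT, and the members' medians were -0.36 and -0.19. The log2FC was then -1.31 and -1.11 for SLC25A20 and -1.18 and -1.27 for ACSL4. Without Control 1, which also leaves 1 control, the members' medians were -0.78 in cold and -0.67 in AT. ACSL4 was not called in cold in that fit.

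**Figure D4:**
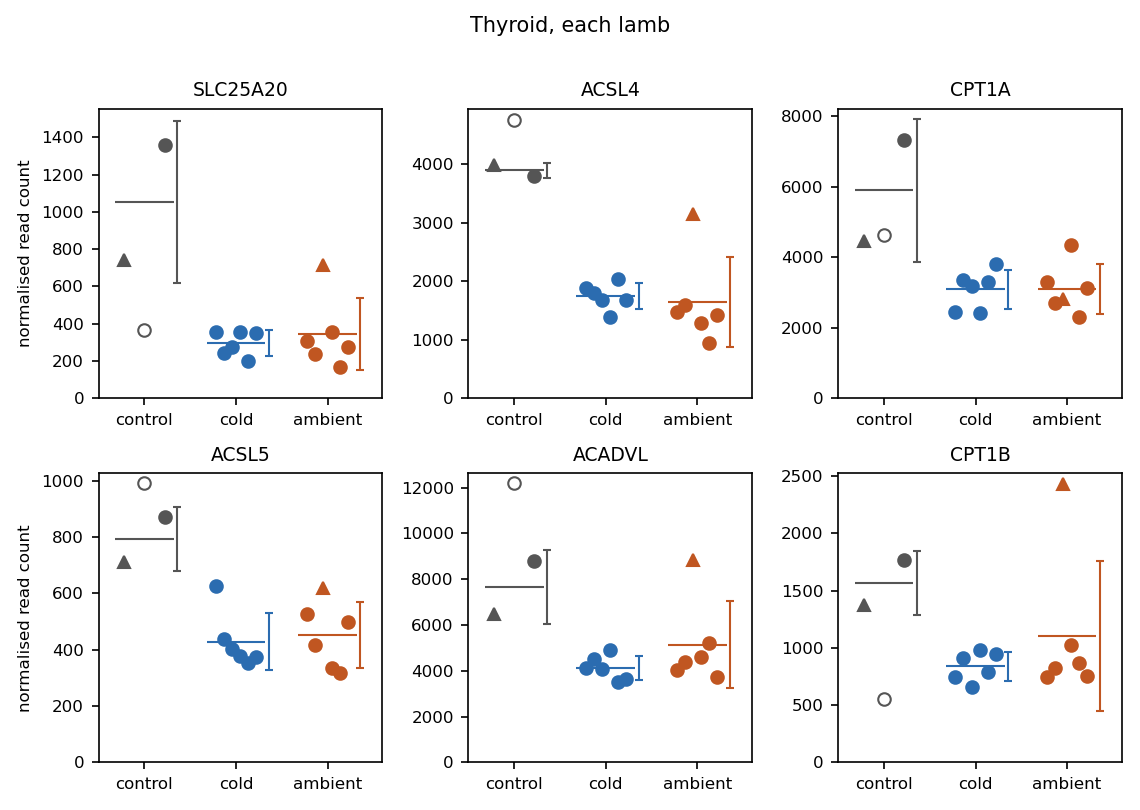
Normalised read count in thyroid tissue of SLC25A20, ACSL4, CPT1A, ACSL5, ACADVL and CPT1B by group; filled points are libraries used, the open circle is the control left out, triangles are the libraries with skeletal muscle markers (AT 3 and Control 1), and line and bar are mean and SD of the libraries used. For ACSL4 all treated lambs lie at or below 3140 and the controls at or above 3803, and AT 3 is the highest AT lamb for SLC25A20, ACSL4, ACADVL and CPT1B.

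Members that passed the adjusted p in TH without reaching the fold came from several steps. CPT1A had 4456 and 7331 normalised read counts in Control 1 and Control 3, from 2417 over 3236 to 3797 in cold and from 2295 over 2967 to 4331 in AT. Both groups lay below these controls, and CPT1A fell by 0.94 in cold (SE 0.23, edgeR adjusted p = 0.0149) and by 0.93 in AT (SE 0.23, edgeR adjusted p = 0.0134). ACSL5 had 712 and 873 in these controls, from 354 over 391 to 627 in cold and from 316 over 457 to 619 in AT, and fell by 0.88 in cold (edgeR adjusted p = 0.0275) and by 0.81 in AT (edgeR adjusted p = 0.0375). ECI2 had 4385 and 6216 in the controls, from 3232 over 3465 to 4096 in cold and from 2971 over 3635 to 4012 in AT. It fell by 0.59 (edgeR adjusted p = 0.0184) and by 0.57 (edgeR adjusted p = 0.0179), with every treated lamb below both controls. ACAT1 had 3196 and 3250 in the controls, from 1802 over 2204 to 2381 in cold and from 1476 over 2129 to 2583 in AT, and fell by 0.57 (edgeR adjusted p = 0.035) and by 0.64 (edgeR adjusted p = 0.0195). OXCT1 fell by 0.74 in cold (edgeR adjusted p = 0.0473) and by 0.73 in AT (edgeR adjusted p = 0.047). Some of these values depended on Control 3. Without it the log2FC was -0.52 in cold and -0.51 in AT for CPT1A, and -0.29 and -0.28 for ECI2. With the left-out control in its place the log2FC of OXCT1 was 0.32 in cold and 0.33 in AT.

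Further members passed in 1 of the 2 comparisons, and whether cold and AT differed for them is given by cold against AT. In cold against AT edgeR called 0 of 32 members and 0% of all genes, and DESeq2's Wald test called 0 members and 0.0124% of all genes. There 1 member, ACSL1, had an unadjusted p under 0.05, as did 5.4% of all genes. ACADVL had 6499 and 8797 normalised read counts in Control 1 and Control 3, from 3491 over 4108 to 4903 in cold and from 3738 over 4477 to 8853 in AT. It fell by 0.89 in cold (SE 0.26, edgeR adjusted p = 0.0282), whereas in AT, where AT 3 lay above both controls, the log2FC was -0.58 (edgeR adjusted p = 0.127). ETFB had 7540 and 12076 in the controls, from 5546 over 6081 to 6980 in cold and from 5052 over 6828 to 7922 in AT. It fell by 0.66 in cold (edgeR adjusted p = 0.0251; log2FC -0.26 without Control 3), and its log2FC in AT was -0.54 (edgeR adjusted p = 0.0531). ACAA2 had 6084 and 6651 in the controls, from 3783 over 4557 to 4648 in cold and from 3052 over 4031 to 5512 in AT. It fell by 0.64 in AT (edgeR adjusted p = 0.023), with every treated lamb below the controls, and its log2FC in cold was -0.53 (edgeR adjusted p = 0.0534). ECHS1 fell by 0.80 in AT (SE 0.22, edgeR adjusted p = 0.022), but its log2FC was 0.34 with the left-out control in place of Control 3.

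The remaining members did not pass in TH. ACSL1 had 4386 and 3197 normalised read counts in Control 1 and Control 3, from 1353 over 1985 to 2849 in cold and from 2183 over 2352 to 6575 in AT, with a log2FC of -0.91 (edgeR adjusted p = 0.0965) in cold and -0.23 in AT. CRAT had 2715 and 3234 in the controls, from 1531 over 1678 to 1942 in cold and from 1662 over 1856 to 5072 in AT. For both, AT 3 was the only treated lamb above the 2 controls. ACOX3 had 2161 and 2955 in the controls, from 1647 over 1902 to 2237 in cold and from 1864 over 1955 to 2323 in AT, and ACOT11 had 89.0 and 218, from 59.2 over 71.8 to 83.5, and from 33.01 over 81.5 to 135. EHHADH was the only member with a positive log2FC in both comparisons (0.41 in cold and 0.15 in AT). BDH1, with 1.82 to 74.2 normalised read counts in the libraries used, was too low to be tested.

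Skeletal muscle is rich in these enzymes, and the part of muscle RNA in the thyroid comparisons was not tested. AT 3 was the highest of the 12 treated lambs for 21 of the 33 members. With AT 3 and Control 1 left out together, a choice made after seeing the data that leaves 1 control and assumes that it varies like the other groups, edgeR called 9 members in cold and 12 in AT, all lower, beside 15.6% and 18.4% of all genes. SLC25A20 then fell by 2.21 in cold (SE 0.31, edgeR adjusted p = 0.000241) and by 2.35 in AT (SE 0.32, edgeR adjusted p = 0.000167). CPT1B, the muscle-type isoform, had a log2FC of -0.91 (edgeR adjusted p = 0.089) in cold with all these libraries and fell by 1.08 without them (SE 0.21, edgeR adjusted p = 0.0019). The medians of the members were -0.78 in cold and -0.83 in AT, against -0.41 and -0.45 over all tested genes.

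Between the tissues, BAT was compared with TH in 1 fit of the 28 libraries, which did not pair the 2 libraries of a lamb. The paper reports a lower average RNA integrity number in BAT than in TH, and the part of RNA quality in this comparison was not tested. In BAT, 20 of 33 members were called higher and 0 lower, where 25% of 17021 genes were called higher and 14.2% lower. At the adjusted p alone 28 members were higher (44.5% of all genes) and 2 lower (26.5% of all genes). The median log2FC of the members was 1.09, against 0.24 over all genes. BDH1, whose row overlaps LOC114111287 on the opposite strand, differed most (log2FC 5.11 ± 0.55 (SE), edgeR adjusted p = 7.78e-09), followed by ACSL1 (2.63 ± 0.24, edgeR adjusted p = 3.48e-10), ETFDH (2.32 ± 0.34, edgeR adjusted p = 1.28e-06), ACSL5 (1.99 ± 0.18, edgeR adjusted p = 2.20e-10) and ACADVL (1.89 ± 0.20, edgeR adjusted p = 4.83e-09). For ACSL1, ACSL5 and BDH1 the lowest BAT library lay above the highest TH library. The trifunctional protein subunits HADHA (log2FC 1.51) and HADHB (1.37), CRAT (1.48), HADH (1.46), EHHADH (1.35), ACOX3 (1.22), ACADS (1.21), ECI2 (1.197), DECR1 (1.18), ACAT1 (1.14), CPT1A (1.11), OXCT1 (1.09), ETFA (1.09), ACAD11 (1.03) and SLC25A20 (1.01) completed the called members. With TMM scaling 14 members were called higher and 0 lower, and the share of all genes was not computed for that fit.

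The members lower in BAT were ACAA1 (log2FC -0.61 ± 0.11 (SE), edgeR adjusted p = 3.73e-05) and CPT1B (-0.81 ± 0.29, edgeR adjusted p = 0.014). CPT1B had its highest TH value, 2425 normalised read counts, in AT 3. Within groups its log2FC was -0.92 ± 0.38 in cold (edgeR adjusted p = 0.0394), -0.22 ± 0.38 in AT (edgeR adjusted p = 0.622) and -1.29 ± 0.66 in control (edgeR adjusted p = 0.135). Within the groups, BAT had 22 members called higher in cold, 21 in AT and 7 in control, beside 26.6%, 26.8% and 16.5% of all genes, and 1 called lower, ACAA1 in control (log2FC -1.25 ± 0.27, edgeR adjusted p = 0.000597).

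Whether the difference between treated and control lambs differed between the tissues was tested as an interaction. In cold against control 0 of 33 members passed the adjusted p of edgeR, where 0.188% of all genes passed; 4 members (11.7% of all genes) had an unadjusted p under 0.05. In AT against control 0 passed, where 1.66% of all genes passed, and 10 members (17.8% of all genes) had an unadjusted p under 0.05. In cold against AT 0 passed, where 0% of all genes passed, and 2 members (7.87% of all genes) had an unadjusted p under 0.05. No other tool was run for these. ACAA1 came closest, with a log2FC in AT 1.13 ± 0.31 (SE) larger in BAT than in TH (edgeR adjusted p = 0.0542). With all 3 controls, 2 members passed in AT against control, ACAA1 and ACSL5. Without AT 6, DECR1, ETFB, ACAT1, ACAA1 and ECHS1 passed in AT against control. Without AT 3, ACAA1, ECHS1 and ACSL4 passed in AT against control, and ACSL4 also in cold against control. Shares of all genes were not computed for these fits.

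The levels of members were also related to UCP1, the uncoupling protein, over the 12 treated BAT libraries on the log2 scale. UCP1 itself had a log2FC of -1.42 ± 0.90 (SE) in cold (edgeR adjusted p = 0.432) and -2.23 ± 0.88 in AT (edgeR adjusted p = 0.127) against controls. Of 33 correlations, 31 were positive (55.5% over all genes) and 0 had an adjusted p under 0.05, as did 0% of 14904 genes, with adjustment over all of them. The permutation test (100000 draws, 2-sided) gave an unadjusted p under 0.05 for 10 members and 7.14% of all genes. CPT1A had Pearson's r = 0.72 (permutation p = 0.009, adjusted p = 0.603) and Spearman's rho = 0.73 (permutation p = 0.00997, adjusted p = 0.765), and ETFDH had r = 0.74 (permutation p = 0.0151, adjusted p = 0.628) and rho = 0.54 (permutation p = 0.0755, adjusted p = 0.872). Leaving out AT 6 and AT 4, the lambs farthest from the median of UCP1, left r = 0.61 for CPT1A and 0.37 for ETFDH. The median r was 0.48 over the members and 0.04 over all genes with the 12 lambs, and 0.13 and 0.11 without these 2. Within groups the median r of the members was 0.42 in cold (0.29 over all genes) and 0.71 in AT, the group of both lambs (0.04 over all genes).

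Other genes of the pathway were taken from 2 lists. Of 49 further genes of fatty acid oxidation and ketone metabolism, 46 had a row and 44 were tested in BAT. There, 1 was called higher and 1 lower in cold against control, beside 0.577% and 0.637% of all genes. In AT against control 2 were called higher and 2 lower, beside 2.86% and 3.21%, and in cold against AT 1 lower, beside 0.0872%. ACOX2, the peroxisomal oxidase of branched chains and bile acid precursors, fell by 2.44 in cold (SE 0.34, edgeR adjusted p = 0.00535) and had a log2FC of -3.10 in AT (SE 0.34, edgeR adjusted p = 0.000324). ACSS3, a mitochondrial short-chain synthetase, rose by 2.55 in cold (SE 0.57, edgeR adjusted p = 0.0394) and by 2.50 in AT (SE 0.57, edgeR adjusted p = 0.0153). CPT1C, the brain-type isoform, was lower in cold than in AT (log2FC -1.36 ± 0.21, edgeR adjusted p = 0.0198). In TH 43 were tested and 3 were called lower in each comparison with controls, beside 6.15% of all genes in cold and 5.98% in AT. Of these, ACSS1, a mitochondrial acetyl-CoA synthetase, had the largest decrease (log2FC -1.65 in cold, edgeR adjusted p = 0.0108, and -1.95 in AT, edgeR adjusted p = 0.0041).

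Of 29 regulators of fatty acid oxidation, all had a row, 27 were tested in BAT and 26 in TH. In BAT 1 was called in AT against control, the fatty acid receptor PPARD (log2FC -1.44 ± 0.28 (SE), edgeR adjusted p = 0.00815), where 3.21% of all genes were called lower. In cold against AT edgeR called 0 of these in BAT and 0 in TH, beside 0.275% and 0% of all genes. In TH 3 were called lower in cold, with PDK4, a kinase that restrains glucose oxidation, lowest (log2FC -2.40 ± 0.75, edgeR adjusted p = 0.0428), and 2 in AT, with the coactivator PPARGC1A lowest (-1.20 ± 0.23, edgeR adjusted p = 0.00405). Of all genes, 6.15% were called lower in cold and 5.98% in AT. Between the tissues 15 of the further pathway genes were called higher in BAT and 5 lower, and 10 of the regulators higher and 1 lower, beside 25% and 14.2% of all genes.

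ACAD9 stood out among the members by lambs rather than by groups, and was chosen for this after its values were seen. In BAT the highest normalised read counts were 4310 in AT 5, 3055 in AT 1, 2642 in Control 1, 2055 in cold 6 and 1965 in cold 4. These 5 lambs also had the highest values in TH, with 5571, 3973, 3774, 3293 and 4273 in the same order. The other 10 lambs had between 449.6 and 1768 in BAT and between 744 and 1749 in TH. The lambs fall into separate clusters in TH, so no pooled correlation is given. The span of ACAD9 (chromosome 19, from 60839003 to 60903478, plus strand) overlaps that of KIAA1257 on the opposite strand. It is not stated whether the counting used strand, so reads of the 2 genes may be mixed where their exons overlap. Overlap of exons was not checked. The same holds for ACAD11, BDH1 and ETFB, whose spans also overlap a gene on the opposite strand, and for CPT1A, whose span overlaps a tRNA gene there. Neither tissue showed a difference between groups for ACAD9 that passed, with SE between 0.50 and 0.89 on the log2 scale.

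**Figure D5:**
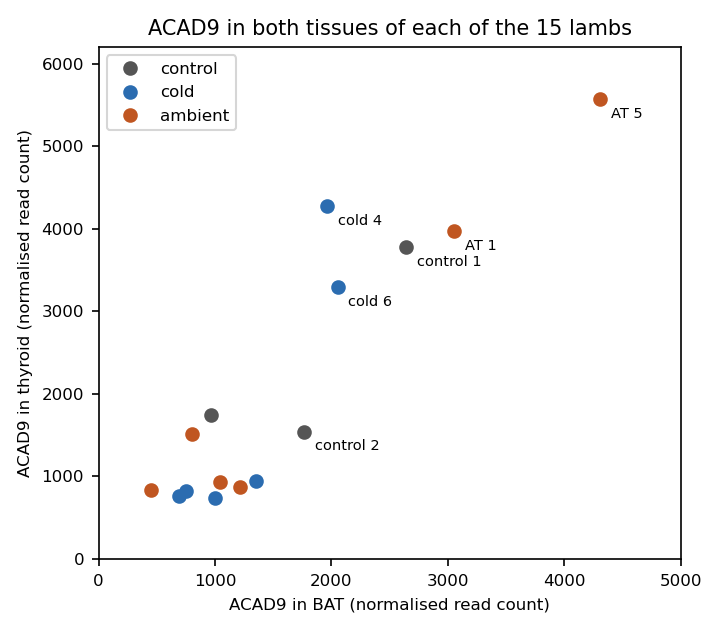
ACAD9 in BAT (horizontal axis) against thyroid tissue (vertical axis) of the same lamb, as normalised read count on each tissue's own scale, for the 15 lambs by group. The 5 lambs with the highest values, AT 5, AT 1, Control 1, cold 6 and cold 4, lie at or above 1965 in BAT and at or above 3293 in thyroid tissue, while the other 10 lie at or below 1768 and 1749.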

How the data were processed

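The authors extracted RNA with TRIzol, enriched poly(A) RNA, sequenced 150-base read pairs on BGISEQ-500, and, per the labels and the methods, trimmed with Trimmomatic 0.39, aligned with STAR 2.7.7a to Oar_rambouillet_v1.0 and counted with featureCounts (Subread 2.0.0), multimapping reads included. They deposited raw counts per gene and library, without normalization. Multimapping can add reads of near-identical copies to a member, and whether counting used strand is not given in the sources used here, so reads of overlapping genes on opposite strands may be mixed. Coordinates are those of the count table.

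Here, counts were divided by size factors from ACTB, RPL19 and HUWE1 (DESeq2 1.42.0). A gene entered the test of a tissue when 10 libraries or more held 10 reads or more of it. Each tissue was fitted by edgeR 4.0.16 (R 4.3.3, robust quasi-likelihood, 2-sided, the 3 groups in 1 fit), with Benjamini-Hochberg adjustment over all tested genes; all adjusted p-values are edgeR's unless named otherwise. Tissues were compared in 1 fit of both. Correlations used log2(normalised count + 1) in SciPy 1.17.1, and figures matplotlib 3.10.9. The scripts were tested on simulated data. The control that the study left out was identified as Control 2, since the study's normalised counts were proportional to the deposited counts of the other controls. Replicates are separate lambs, and no 2 libraries of a group agreed within sampling noise (chi-square over its degrees of freedom of 36.0 or more).

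The value of each control used and the lowest, median and highest of each treated group were given for a chosen set. These were members called within a tissue, CPT1A, ACSL5 and the member of each role with the highest BAT level per kb. Some other members were given in the same way. Of the other lists, the called genes with the largest log2FC in each direction were named, and other genes were named after their values were seen. Members and lists were chosen with earlier results of these data known. Both tissues of a lamb share its number in the labels, and same-lamb residuals correlated at over 0.1 in 13 of 14 lambs (0.0446 to 0.333, median 0.225). A lamb block was therefore fitted between tissues as an alternative. The values printed for BAT against TH and for the interactions come from the fit without this block. Control 1 and Control 3 share 1 value (0.115), because residuals from a mean of 2 libraries mirror each other. Correlations between different lambs were not computed as a baseline. Alternatives were TMM and median-of-ratios scaling, DESeq2's Wald test, the adjusted p alone, no filter, edgeR's filterByExpr filter, the RNA integrity number as a covariate within each tissue, only the groups compared, other sets of controls, each library left out, and, chosen after seeing the data, both muscle-marked thyroid libraries left out. No sequence of a member was used here, and 1 result for a gene of the other lists is not reported here.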

Additional observations from a re-analysis of the deposited data

Results flagged for a closer look

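Among 132 groups of 6 treated lambs (each member by tissue and treatment), 20 held a lamb far from the others by Dixon's criterion for the gap to the nearest lamb, where chance flags about 1 in 20 groups. Of these, 12 were highest values of AT 3 in thyroid tissue, the library with the highest skeletal muscle marker sum: ACADVL at 8853 normalised read counts, HADHB at 8053, HADHA at 7134, ACSL1 at 6575, CRAT at 5072, ACSL4 at 3140, ETFA at 2764, ETFDH at 2589, CPT1B at 2425, CPT2 at 799, SLC25A20 at 714 and BDH1 at 74.2. The part of muscle RNA in these levels was not tested.

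In BAT, AT 6, with the lowest brown adipocyte marker sum of the treated lambs, was far below the other AT lambs for CRAT (822 normalised read counts), ACADL (382) and ECI1 (222). Cold 3 was far above the other cold lambs in BAT for ACSL3 (749) and ACAD11 (409.5), and cold 1 for BDH1 (266). In thyroid tissue, cold 3 was far above the other cold lambs for ACADL (1412) and cold 1 for ACSL5 (627).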

How the results depend on the processing

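Of 143 counts and medians recomputed under alternatives other than leaving out a library, 110 stayed the same, 7 were weaker, 11 stronger and 15 moved. The same here means a count equal or close to the main one, or a median within the spread between lambs. For AT against control in BAT this spread was 0.57, wide enough to include a change of sign. Medians of -0.36 (all 3 controls) and -0.46 (left-out control in place of Control 1) were therefore counted as the same as 0.07. The 14 members called between the tissues with TMM, against 20 in the main fit, were taken as close. Of 208 counts and medians with 1 library left out these were 194, 3, 6 and 5. Of 218 values of single members under the former, 142 stayed on their side of the threshold, 72 no longer passed and 4 reversed, and with 1 library left out, of 280 these were 225, 54 and 0, and 1 newly passed. The block by lamb, which pairs the tissues, gave 20 members called between BAT and thyroid tissue and 0 interactions, and changed no call; within a tissue no paired analysis was possible because each lamb gives 1 library. The cause of the shifts below was not tested.

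In BAT, cold against control had 1 called member (SLC25A20) with all 3 controls, beside 4.87% of all genes (median of the members -0.52). With the left-out control in place of either other one it had 3, beside 5.94% (for Control 1, median -0.63) and 6.64% of all genes (for Control 3, median -0.68). AT against control then had 4 (for Control 1, beside 9.21% of all genes, median -0.46) and 0 (for Control 3, beside 8.14%, median -0.61). The log2FC of CPT1A in cold was 0.0882 with the left-out control in place of Control 1. In AT its adjusted p (edgeR) ran from 0.000144 to 0.318 over 24 alternatives.

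In thyroid tissue, cold against control had 9 members at the adjusted p alone, all lower, beside 16.9% of all genes lower. Called members were 1 with TMM (4.91% of all genes), 1 with median of ratios (4.89%), 5 with all 3 controls (8.47%) and 4 with the left-out control in place of Control 1 (9.91%). The medians were -0.30 (TMM), -0.30 (median of ratios), -0.41 (all 3), -0.40 (for Control 1), -0.25 (for Control 3) and -0.78 (without the muscle-marked libraries). AT against control had 9, 1, 1, 1 (for Control 3), 0 (only the 2 groups, on the same genes) and 12 (without muscle), with medians of -0.15, -0.15, -0.0475 (for Control 3) and -0.83. The median of cold against AT was 0.0788 without muscle. With the left-out control in place of Control 3, OXCT1 was 0.32 in cold and 0.33 in AT, and ECHS1 0.34 in AT. All 3 controls gave 2 interactions, for which a share of all genes was not computed.

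With 1 library left out, called members ran from 0 to 0 (BAT cold against control), 0 to 4 (BAT AT), 0 to 1 (BAT cold against AT), 0 to 7 (thyroid cold), 0 to 6 (thyroid AT), 0 to 0 (thyroid cold against AT) and 18 to 21 (BAT against thyroid tissue), interactions from 0 to 5 and members correlated with UCP1 from 0 to 0. The medians ran from -0.19 to -0.0915, from -0.02 to 0.23, from -0.41 to -0.10, from -0.78 to -0.36, from -0.71 to -0.19 and from -0.0846 to 0.0788 in the order of the 6 comparisons within tissues. The extremes in BAT AT came without Control 1 and without AT 6 (8.07% of all genes called). Those in thyroid tissue came without Control 3 and without Control 1. The fits without a control rest on 1 control, and in them the share of all genes called also differed from the main fit.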
